A study of Mus musculus with 74 samples.

Results

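A set of 8107 1-kb windows carried trimethylation of lysine 9 on histone H3 (H3K9me3) in mouse embryos 6 h after activation and in none of the 9 other peak lists examined. The windows were counted from position 0 of each of the 19 autosomes of mm10. A window was taken when the peaks called at 6 h post activation (6 hpa) covered at least 500 of its 1000 bases and when the peaks of every other list covered 0 bases of it. The set is 8107 of 2462755 autosomal windows, or 0.338% of the 2395928 windows with at least 50% assembled sequence. It is 6.83% (Wilson 95% interval 6.69 to 6.98) of the 118626 windows marked at 6 hpa. The windows were chosen by peak coverage in these 10 lists, so the coverage and enrichment values given here for them are descriptions.

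To follow the mark after somatic cell nuclear transfer (SCNT), the study used ULI-NChIP-seq, a ChIP-seq protocol for very few cells that cuts unfixed chromatin with micrococcal nuclease (MNase) and precipitates it with an antibody. In SCNT a donor nucleus is placed in an enucleated egg and the construct is then activated chemically. Donors were cumulus cells (CC), the cells that surround the egg, from B6D2F1 (BDF1) females, and the eggs were B6D2F1 as well. All constructs were activated with strontium chloride in calcium-free medium with cytochalasin B, so every SCNT stage shares that treatment. SCNT embryos were sampled at 6 and 14 hpa, as 2-cell, 4-cell and 8-cell embryos, as morulae, and as blastocysts split into trophectoderm (TE) and inner cell mass (ICM). Fertilized zygotes at pronuclear stage 5 (PN5) came from a C57BL/6 by C57BL/6 cross and, by the methods, from an earlier publication, so embryo type, strain and data source cannot be told apart in the PN5 list. No allele was altered in any of these groups. Each list was called on pooled libraries (5 precipitates and 5 inputs at 6 hpa, 2 to 7 precipitates for the other lists), after drawing the same number of reads per stage. There is therefore 1 value per stage, no replicate error and no test. Intervals are Wilson 95% intervals over windows, islands or genes; they account for counting error alone, and adjacent windows depend on each other. Every list came from different embryos, so gain and loss in 1 embryo was not followed, and where a list has no peak the mark may still be present below the caller's threshold. Peak lists hold no transcripts, so the labelled stages could not be checked against marker genes.

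H3K9me3 is deposited by the SUV39H and SETDB1 enzymes, is bound by HP1 proteins and marks compact, silent heterochromatin. In most cells it lies over repeats, pericentromeric DNA and clustered gene families. CpG islands, GC-rich stretches that keep a high density of CG dinucleotides, hold the promoters of most housekeeping and developmental genes and are usually free of it. A transferred donor nucleus meets the egg's own chromatin enzymes within hours of activation.

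The sequences below show the contrast among the windows of highest 6 hpa enrichment, at gene starts and far from them. They are the central 200 bases of the 3 windows with the highest peak enrichment that hold the 5′ end of a protein-coding gene, and of the 2 highest more than 10 kb from any such 5′ end. All are on the plus strand of GRCm38.p6 (mm10), in lower case, with every CG dinucleotide in capitals.
2610042L04Rik (chr14:4334401-4334600): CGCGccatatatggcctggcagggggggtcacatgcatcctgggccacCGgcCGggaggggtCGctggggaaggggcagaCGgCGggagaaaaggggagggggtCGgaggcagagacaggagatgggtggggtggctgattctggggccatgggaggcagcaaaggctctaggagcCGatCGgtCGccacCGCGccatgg
Dchs1 (chr7:105787401-105787600): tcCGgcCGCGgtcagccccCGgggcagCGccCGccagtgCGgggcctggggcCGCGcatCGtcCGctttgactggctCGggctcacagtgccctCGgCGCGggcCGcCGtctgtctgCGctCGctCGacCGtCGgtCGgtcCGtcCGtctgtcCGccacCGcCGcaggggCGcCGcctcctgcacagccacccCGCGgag
March11 (chr15:26309401-26309600): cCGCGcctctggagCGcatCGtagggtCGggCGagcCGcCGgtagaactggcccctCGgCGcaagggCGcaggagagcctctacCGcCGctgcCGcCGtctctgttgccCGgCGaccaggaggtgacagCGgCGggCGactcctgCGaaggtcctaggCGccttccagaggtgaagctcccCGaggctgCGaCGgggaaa
distal window (chr10:3107401-3107600): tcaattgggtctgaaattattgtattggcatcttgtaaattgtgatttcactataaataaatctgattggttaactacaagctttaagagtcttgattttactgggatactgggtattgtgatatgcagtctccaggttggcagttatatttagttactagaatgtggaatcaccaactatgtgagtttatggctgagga
distal window (chr10:3108401-3108600): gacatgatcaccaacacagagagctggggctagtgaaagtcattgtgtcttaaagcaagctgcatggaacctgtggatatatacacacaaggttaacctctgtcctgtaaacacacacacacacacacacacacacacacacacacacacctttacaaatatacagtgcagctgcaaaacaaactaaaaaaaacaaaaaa
The 3 gene-start stretches held 13, 32 and 25 CG dinucleotides in 200 bases. The pair of distal stretches held 0. The GC content of the whole windows was 65.7% at 2610042L04Rik, 72% at Dchs1 and 68.7% at March11, against 41.5% and 41.3% in the distal pair. Windows of the set with neither a CpG island nor a promoter had a median GC of 48.2%.

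To ask how unusual exclusive windows were, the same rule was applied to each list in turn. The 6 hpa list held fewer of them than CC, with 19253 (9.74% of its marked windows), and than PN5, with 25321 (21.9%). It held about as many as the 8-cell list, with 7802 (5.33%), and more than 14 hpa, with 4661 (2.39%). The order changed with the peaks used. With a −log10 q minimum of 2 for all lists, 6 hpa held 6117 and 14 hpa 7431, and with lists trimmed to equal length 6 hpa held 11321 and the 8-cell list 7476. The 2-cell list held the fewest, 409 (0.368%). Their sequence set the 6 hpa windows apart. Of the 8107, 2593 (31.98%, 30.98 to 33.01) overlapped a CpG island. Among the windows exclusive to the 9 other lists this share was highest in the 2-cell list at 2.93% and was 1.84% in PN5, 0.215% at 14 hpa and 0.109% in CC. Islands were sought outside soft-masked repeats. Masked bases averaged 22.3% in the set and 22.5% in PN5 only windows, but 50.6% in 14 hpa only and 56.2% in CC only windows. The part of masking in these island shares was not tested.

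**Figure D1:**
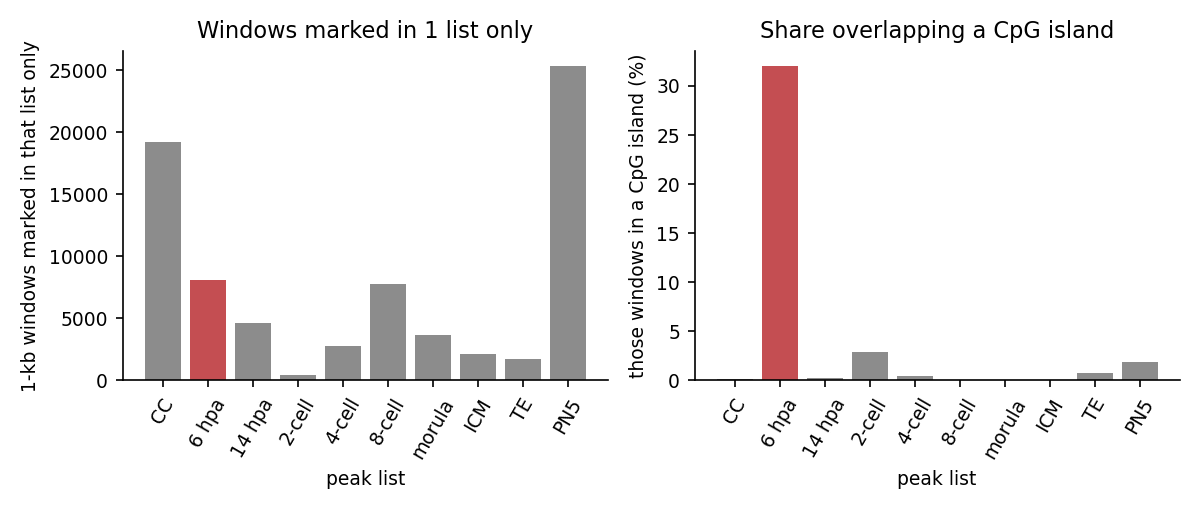
Left, number of autosomal 1-kb windows marked in 1 peak list and touched by none of the 9 others, for each list; right, the percentage of those windows that overlap a CpG island. The 6 hpa list (red) has 8107 such windows and an island share of 31.98%, and the other lists (grey) have island shares of at most 2.93%.

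The rule leaves every other 6 hpa window touched by at least 1 other list. Of the windows marked at 6 hpa, 27329 (23.0%) were touched by peaks of all 9 other lists, 6679 (5.63%) by peaks of exactly 1, and the 8107 by none. Where exactly 1 other list touched a window, that list was CC in 2569 windows (38.5%), PN5 in 1084 (16.2%) and 14 hpa in 1055 (15.8%). The 8107 windows are thus set beside the 110519 other 6 hpa windows in what follows.

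Median GC content was 52.2% in the windows marked only at 6 hpa and 46.7% in the other 6 hpa windows. It was 38.7% in windows marked only at 14 hpa, 37.8% in those marked only in CC, 46.7% in those marked only in PN5 and 41.7% over all assembled windows. The median window held 18 CG dinucleotides per kb, against 11 in the other 6 hpa windows and 7 over all windows. GC was at least 50% in 59.96% of the windows marked only at 6 hpa and in 22.8% of the other 6 hpa windows. Repeat sequence, read as the soft-masked share, averaged 22.3% of bases, against 49.3% in the other 6 hpa windows, 22.5% in PN5 only windows and 33.5% over all windows. The central 31 bases recurred elsewhere on the autosomes in 10.2% of the windows marked only at 6 hpa, in 42.6% of the other 6 hpa windows, in 7.23% of PN5 only windows and in 15.7% of all windows. The windows were thus richer in unique, CG-dense sequence than the rest of the 6 hpa list.

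**Figure D2:**
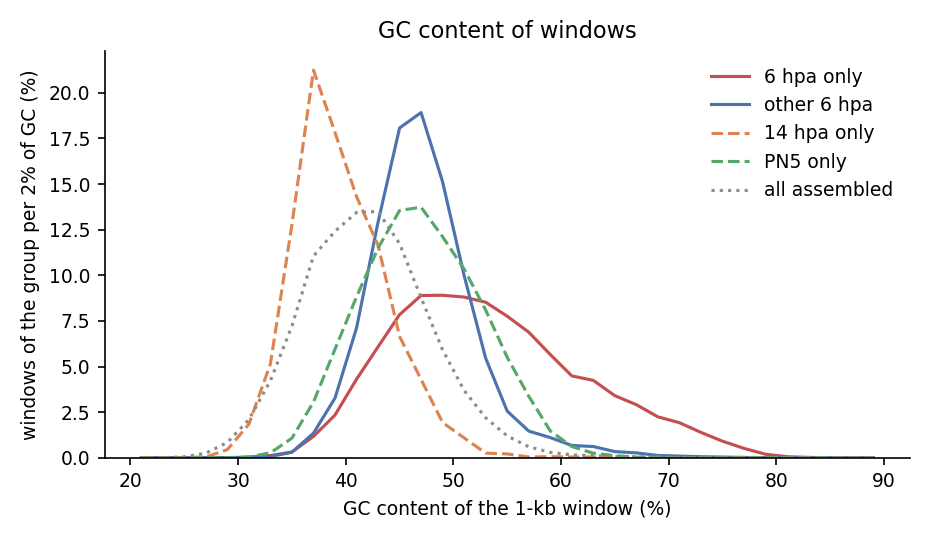
Distribution of GC content (x axis, percent, in steps of 2%) over 1-kb windows, as the percentage of each group's windows (y axis), for windows marked only at 6 hpa, the other 6 hpa windows, windows marked only at 14 hpa or only in PN5, and all assembled windows. The 6 hpa only curve (median 52.2%) is broad and reaches above 65%, where the other curves are near 0.

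The share of 6 hpa windows that belonged to the set fell and then climbed with GC content, with the climb from 50% GC up. Below 35% GC it was 8.203% (5.43 to 12.2), and at 35 to 40% it was 5.403% (4.84 to 6.02). It was 3.42% (3.23 to 3.63) at 40 to 45% GC, 3.61% at 45 to 50%, 8.46% at 50 to 55%, 24.5% at 55 to 60%, 34.5% at 60 to 65% and 51.9% (49.6 to 54.2) at 65% or more. Groups also differed in islands within the range of 50 to 60% GC, which does not match GC exactly. In the set 1722 windows lay at 50 to 55% and 1329 at 55 to 60%. These counts were 20360 and 5427 over all windows marked at 6 hpa, and 157541 and 33833 over all assembled windows. The set thus lay higher within the range. Between 50 and 60% GC, 27.7% of the windows marked only at 6 hpa overlapped an island, against 4.99% of the other 6 hpa windows, 3.90% of the windows marked only in PN5 and 7.05% of all windows. In the same GC range the masked share was 15.0% in the set, 45.8% in the other 6 hpa windows, 13.3% in PN5 only windows and 19.7% in all windows. The part that base composition has in which windows pass a peak caller's threshold was not tested.

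In GC, islands and promoters the set ranked above the comparison groups on each autosome. The autosomes come from the same pooled lists and are not replicates. On 19 of 19 autosomes median GC, the island share and the promoter share were higher in the windows marked only at 6 hpa than in each of the 5 comparison groups (other 6 hpa, 14 hpa only, CC only, PN5 only and all). The island share ranged from 25.8% on chromosome 10 to 40.3% on chromosome 19. Over the autosomes the set made up 0.209% of windows on chromosome 1 and 0.546% on chromosome 11, and this density went with genes per Mb (Pearson r = 0.823) and with median GC (r = 0.886). These correlations are over 19 chromosomes that share libraries and base composition, and they are given as descriptions.

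Genes were the next feature. A promoter, taken as 1 kb on either side of a protein-coding gene's annotated 5′ end, was overlapped by 2077 windows (25.6%, 24.7 to 26.6), against 2.22% of the other 6 hpa windows, 1.35% of the 14 hpa only windows and 2.43% of all windows. Coding exons were overlapped by 28.7% of the set and 5.16% of the other 6 hpa windows. Intergenic windows were 32.5% of the set and 61.7% of the other 6 hpa windows. PN5 only windows had a like intergenic share of 32.8%, with the set higher on 10 of 19 autosomes, but a promoter share of 3.02%. With each window given to 1 class in order, 25.6% lay at promoters, 15.2% in coding exons, 2.65% in untranslated regions, 19.7% in introns or noncoding exons of protein-coding genes, 6.48% in other genes and 30.3% between genes.

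Island and promoter were both present in 1676 windows, which were 61.7% (59.8 to 63.5) of all 6 hpa windows of that class. Windows with an island away from promoters numbered 917 (38.2% of their class) and windows with a promoter and no island 401 (22.2%). The remaining 5113 windows (63.1% of the set) had neither, were 4.58% of their class and had a median GC of 48.2%. Most of the set therefore lay outside islands and promoters, and of these 4 classes the set was the larger part of the 6 hpa mark only where island and promoter met.

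Density peaked at gene starts. Of all windows centred within 500 bp of a protein-coding 5′ end, 5.04% (4.74 to 5.35) were in the set, as were 4.22% of those centred 500 to 1500 bp downstream, 1.35% of those 500 to 1500 bp upstream and 0.142% of those more than 100 kb upstream. Within 500 bp of a 5′ end the set was 49.1% of what was marked at 6 hpa, and more than 100 kb upstream it was 2.78%. The other 6 hpa windows also had a local rise at gene starts, from 2.89% of windows 500 to 1500 bp upstream to 5.23% within 500 bp, and were 4.99% more than 100 kb upstream. The median distance to a 5′ end was 11143 bp in the set, 78086 bp in the other 6 hpa windows and 72535 bp over all windows. Even so, 4174 windows (51.5%) lay more than 10 kb from any protein-coding 5′ end.

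**Figure D3:**
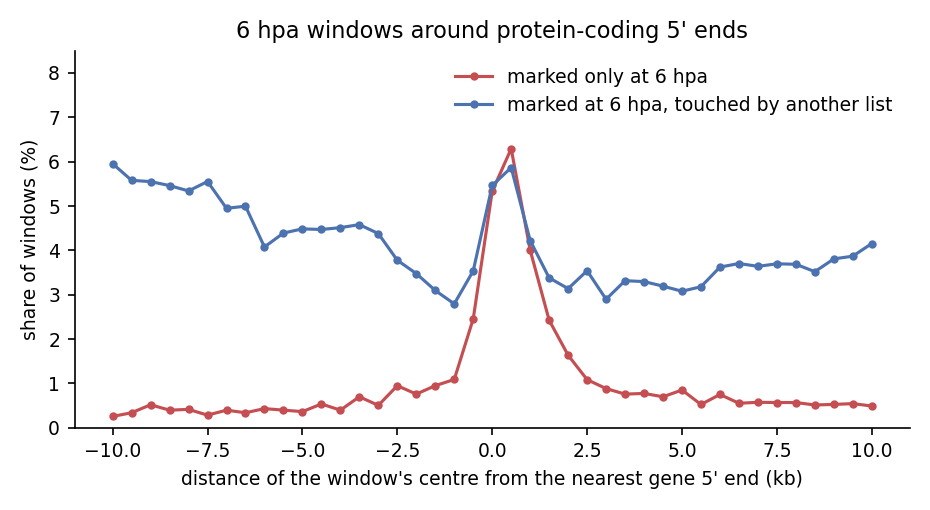
Percentage of assembled 1-kb windows (y axis) that were marked only at 6 hpa (red) or marked at 6 hpa and touched by another list (blue), by the distance in kb of the window's centre from the nearest protein-coding 5′ end (x axis, negative upstream, 500-bp steps). The red curve rises to 6.29% just downstream of the 5′ end and falls to 0.257% at 10 kb upstream, while the blue curve is 5.87% and 5.95% at the same positions and dips to 2.79% at 1 kb upstream.

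CpG islands were then taken as units. Of 16575 autosomal islands, 2191 (13.2%, 12.7 to 13.7) overlapped a window of the set. The share was 13.5% of the 10769 islands at promoters and 12.8% of the 5806 islands away from them. Islands that overlapped the set were longer, with a median of 860 bp against 552 bp for all islands.

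The 5′ ends of 1036 of 20807 autosomal protein-coding genes (4.98%, 4.69 to 5.28) lay in a window of the set, which is 49.5% of the 2095 genes with a 5′ end in any 6 hpa window. Of these 1036 genes, 862 (83.2%) had a high-CpG promoter, as judged by GC and by the observed-to-expected CG ratio in a sliding 500-bp frame. That is 8.30% of all 10385 high-CpG promoters, against 3.39% of intermediate and 0.668% of low-CpG promoters. In the whole 2 kb around the 5′ end, 920 of the 1036 genes (88.8%) had no peak of any other list. The rule had already emptied the window that holds the 5′ end, so this count follows in part from the rule. Peaks of CC entered 43 of these promoters (4.15%), those of PN5 29 (2.80%) and those of 14 hpa 13 (1.25%). Over all promoters the shares were 9.92% for CC, 11.8% for PN5 and 10.8% for 14 hpa. At 6 hpa a median of 50.8% of the 2 kb was covered, and 61 promoters (5.89%) were covered throughout.

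The 10 genes with the highest 6 hpa peak fold at the 5′ end had enrichments of 3.75 to 4.50 over input and no peak of another list in the 2-kb promoter. Dchs1, a large cadherin of the planar cell polarity system, had a fold of 4.25 and 50.5% of its promoter covered at 6 hpa. March11, a membrane ubiquitin ligase, had a fold of 4.21 with 87.5% covered. Cdh22, a cadherin, had a fold of 3.99 with 100% covered. Nefh, the heavy neurofilament subunit, had a fold of 3.79 and Tshz3, a zinc-finger homeobox factor, one of 3.78, each with 100% covered. The others were 2610042L04Rik (4.50), Ralyl (4.14), Fam131c (3.87), Susd5 (3.81) and Kcnab2, a potassium channel subunit (3.75). The central 31 bases of the 2610042L04Rik window occur 14 times on the autosomes, so its reads may be shared with near-identical copies.

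A promoter marked only at 6 hpa did not mean a gene body free of peaks elsewhere. The annotated body of Tshz3 was covered over 68.4% of its bases at 6 hpa, 66.98% in CC, 64.7% at 14 hpa and 6.53% in PN5, and over 60.7% in the 2-cell and 47.8% in the 4-cell list. The body of Cdh22 was covered over 19.7% at 6 hpa, against 38.7% in the 4-cell and 42.2% in the 8-cell list. Nefh was the opposite case, with 32.8% of its body covered at 6 hpa and 0% in the 9 other lists. The 6 hpa peak thus stood alone in the 2-kb promoter of Tshz3 but not in its body, and stood alone in both at Nefh. The Tshz3 body was covered over 6.66% in ICM and 11.6% in TE. Where in that body the peaks of the other lists lay was not examined.

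Developmental regulators were described by family. In each list of genes, the count is that of 5′ ends in the set, to be read against the 4.98% of all genes and the 8.30% of high-CpG genes. The lists were chosen with results of these data known, some genes are in more than 1 list, and no list was tested.

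Signalling ligands had the highest share. Among the Wnt, Fgf and Bmp ligands, secreted factors that pattern the embryo, 16 of 49 (32.7%, 21.2 to 46.6) had the 5′ end in the set. Within high-CpG promoters it was 12 of 27 (44.4%). Fgf8, which patterns the gastrula and limb, had a 6 hpa fold of 3.36 with 67.6% of the promoter covered, and Wnt5a, a ligand of non-canonical Wnt signalling, had 3.16 with 100% covered. Bmp2 had 2.95 with 96.1% covered and Fgf11 had 3.24 with 43.0% covered. Of these 4, Fgf11 alone had promoter bases covered in CC, at 14 hpa or in PN5 (6.65% in PN5). No other list touched the body of Fgf8, of which 51.1% was covered at 6 hpa.

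Transcription factors of the Sox, Fox, T-box and GATA families followed, with 21 of 79 genes (26.6%, 18.1 to 37.2), 20 of them among the 60 high-CpG promoters. Foxe1, a thyroid factor, had a fold of 3.50 with 100% of the promoter covered. T (brachyury), the mesoderm factor, had 3.48 with 96.4%, Foxp2 had 3.43 with 29.6% and Foxi3 had 3.42 with 60.3%. Other homeobox and paired-box factors had 20 of 81 genes (24.7%, 16.6 to 35.1). Irx4, a factor of the cardiac ventricle, had a fold of 3.28, with 44.2% of the promoter covered at 6 hpa and 12.3% in the 4-cell list. The fold was 3.19 at Lhx1 and 3.17 at Barx1 and at Nkx6-2. Neural and mesodermal basic helix-loop-helix factors had 8 of 48 (16.7%). Neurog2, a proneural factor, had a fold of 3.47 with 82.7% of the promoter covered at 6 hpa and 15.5% in CC. Neurog1 had 3.06, with 73.9% of the promoter covered at 6 hpa, 32.5% in the 4-cell list and 8.70% at 14 hpa. Atoh1 had 2.93 and Hes5, a Notch target, 2.84 with its whole body covered at 6 hpa and 0% in every other list.

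Hox genes were often marked at 6 hpa but seldom only then. Of 39 Hox genes, 27 (69.2%) had the 5′ end in a 6 hpa window and 5 (12.8%, 5.60 to 26.7) in the set. The share in a 6 hpa window was 10.1% over all protein-coding genes and 13.4% over high-CpG promoters. Peaks of the 4-cell list touched 19 of the 27 windows, those of the 8-cell list 15, the 2-cell list 13, 14 hpa 9, CC 7 and PN5 1. Over all 2095 genes with the 5′ end in a 6 hpa window, these lists touched 429, 344, 462, 642, 507 and 405, in the same order. The 5 were Hoxb9 (fold 2.97, promoter covered throughout at 6 hpa and over 12.3% in the 4-cell list), Hoxd8 (2.87), Hoxa7 (2.71) and the pair Hoxd3 and Hoxd4, whose annotated 5′ ends share 1 window (2.59). The Hoxa7 body was covered over 55.1% at 6 hpa, 79.7% in the 4-cell list and 67.9% in the 8-cell list, with the promoter at 0% in CC, at 14 hpa and in PN5.

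Regulators of pluripotency and trophectoderm, the lineages that form within days, had 8 of 34 genes (23.5%, 12.4 to 39.996) in the set. Tfap2c, a trophoblast and germ cell factor, had a fold of 3.35 with 66.3% of the promoter covered at 6 hpa and 10.05% in the 2-cell list, and 26.3% of its body at 6 hpa against 2.15% in CC and 0% in the 8 other lists. Tead4, which is needed for trophectoderm, had 3.28 with 32.4% covered. Eomes, a trophoblast and mesoderm factor, had 3.06 with 63.8% covered and a body covered at 6 hpa (24.3%) and in no other list. Hand1, a trophoblast giant cell factor, had 2.73 with 100% covered at 6 hpa and 6.197% in CC. Cyclins, their kinases and inhibitors had 5 of 44 (11.4%, 4.95 to 24.0), among them Cdkn2a (2.92), the cell cycle inhibitor locus, Cdk9 (2.90), Ccnd1 (2.86) and Cdk8 (2.79).

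**Figure D4:**
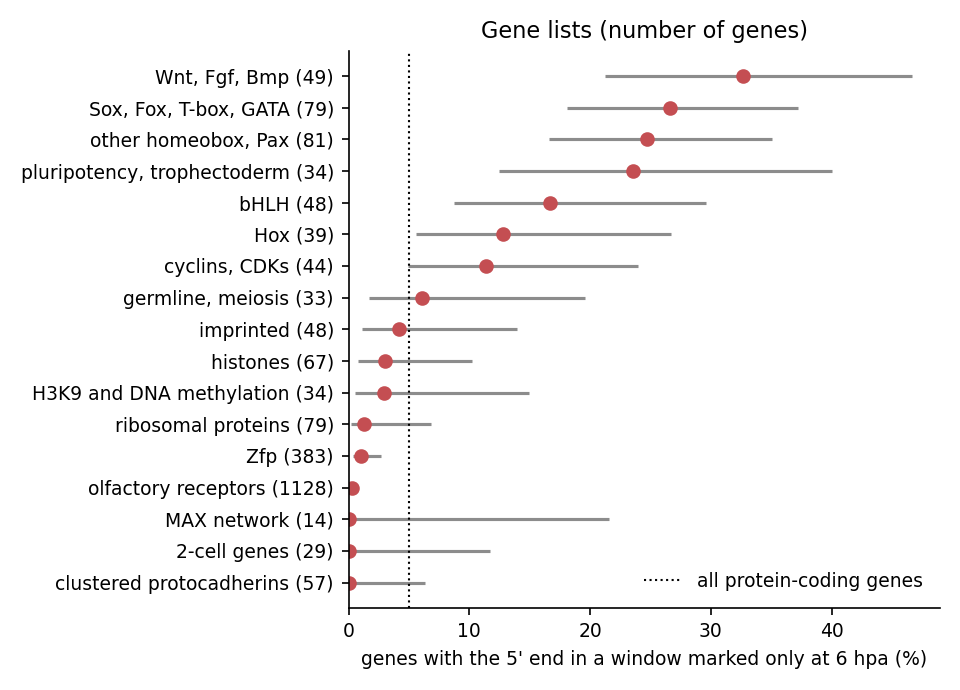
Percentage of the genes of each list (y axis, number of genes in brackets) whose 5′ end lies in a window marked only at 6 hpa; points are the shares, grey lines Wilson 95% intervals over genes, and the dotted line is the 4.98% of all protein-coding genes. Wnt, Fgf and Bmp ligands are highest at 32.7%, and the clustered protocadherins, 2-cell genes and MAX network are at 0.

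Some lists made up mostly of high-CpG genes held few. Ribosomal protein genes, 91.1% of them high-CpG, had 1 of 79 (1.27%, 0.224 to 6.83), which was Rps21. Histone genes, 95.5% high-CpG, had 2 of 67 (2.99%), Hist1h2an and Hist1h2bp, which share 1 window. The MAX network genes had 0 of 14 (an interval up to 21.5%), and the enzymes and readers of H3K9 and DNA methylation had 1 of 34 (2.94%), the deacetylase gene Hdac2 (fold 2.38). Among lists of more mixed promoters, Zfp zinc finger genes had 4 of 383 (1.04%), Zfp609, Zfp592, Zfp654 and Zfp703. Imprinted genes had 2 of 48 (4.17%), Slc22a3 (fold 3.14) and Dlk1 (2.98), and germline genes 2 of 33 (6.06%), Tdrd6 and Smc1b. Within high-CpG promoters the last 2 lists had 2 of 29 (6.90%) and 2 of 18 (11.1%).

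Families known as H3K9me3 targets were marked at other stages too. Of 29 genes of the 2-cell and minor zygotic activation list, 8 (27.6%) had the 5′ end in a 6 hpa window. In the set were 0 (an interval up to 11.7%), and CC and 14 hpa peaks each touched all 8. Clustered protocadherins had 15 of 57 (26.3%) in 6 hpa windows and 0 in the set (up to 6.31%), and CC peaks touched 13 of the 15. Among all 2095 protein-coding genes with the 5′ end in a 6 hpa window, CC peaks touched 507 and 14 hpa peaks 642. Olfactory receptor genes had 19 of 1128 (1.68%) in 6 hpa windows and 3 in the set (0.266%), Olfr649, Olfr646 and Olfr642. The share in a 6 hpa window was 10.1% over all protein-coding genes and 6.22% over low-CpG promoters, so olfactory receptor genes were below both. High-CpG promoters were few here, with 1 of the 29 2-cell genes, 19 of the 57 protocadherins and 0 of the 1128 olfactory receptor genes. The low-CpG promoters of all genes had a share of 0.668% in the set.

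Some windows lay side by side. Runs of adjacent windows numbered 6989, of which 6151 (88.0%) were single windows, 646 were pairs and 192 held 3 or more. The longest, 8 windows at chr6:88194001-88202000, lay in Gata2, a factor of blood and trophoblast. Peaks covered 65.5% of the Gata2 body at 6 hpa, 2.13% in CC and 0% in the 8 other lists. Runs of 7 lay at chr17:6476001-6483000, in the noncoding gene Gm26848 and 39704 bp from Dynlt1b, and at chr11:63918001-63925000, at the start of Hs3st3b1, a heparan sulfate sulfotransferase. A run of 5 at chr11:22000001-22005000 held the start of Otx1, a homeobox factor of the forebrain, whose body was covered over 75.2% at 6 hpa, 1.98% at 14 hpa and 0% elsewhere. Another run of 5 lay at chr10:79637001-79642000, across Shc2 and Odf3l2. Mean GC in these 5 runs ran from 52.7 to 60.1%.

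Counted by gene, 3190 protein-coding genes (15.3%) overlapped at least 1 window, and 2154 of them (67.5%) exactly 1. Long annotations led this count. Gm20388, a readthrough annotation over several genes, held 63 of 4436 windows, and Fgfr2, an Fgf receptor with a very long annotated span here, held 19 of 2962. In shorter genes the set was a larger part of the body. Srcin1, a regulator of SRC kinase, held 14, which were all of its 14 windows marked at 6 hpa. Cyp26b1, which breaks down retinoic acid, held 9 of 9, with 37.0% of its body covered at 6 hpa and at most 1.90% in any other list. Gata2 held 9 of 10 and Gm4881 11 of 12. Igsf21 (12), Gse1 (11), the synaptic gene Nrxn2 (10) and Csmd1 (10) completed the first 10, in which Gata2 and Cyp26b1 were tied with Sptbn4 (9 of 33 windows marked at 6 hpa), Cpne4 (9 of 145) and Grm8 (9 of 54).

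At a broader scale, 489 of 2403 1-Mb bins (20.3%) held 0 windows, the median bin held 2 and the highest 36. The highest bin was 80 to 81 Mb of chromosome 10, with 53 protein-coding 5′ ends. The next, with 35 each, were 24 to 25 Mb and 45 to 46 Mb of chromosome 7, with 41 and 67.

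The windows were of modest enrichment. Their 6 hpa peaks had a median fold of 2.64 over input (quartiles 2.49 and 2.85) and a median −log10 q of 2.03, where a larger value is a smaller false discovery rate, against 2.93 and 3.01 in the other 6 hpa windows. Median peak width was 953 bp and 1705 bp. The lowest −log10 q in the set was 1.31, and 1354 windows (16.7%) were covered throughout. The windows of highest fold were not GC-rich gene starts. They were chr10:3107001-3109000 (fold 15.7, intergenic, 147207 bp from H60c), chr10:72296001-72297000 (12.1, 357844 bp from Zwint) and chr10:3118001-3121000 (11.2, over the noncoding Gm3318 and 9230019H11Rik), followed by a window at Rcor2, a corepressor gene named after its value was seen, with 5.68 and a GC content of 74.2%.

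The cut at 500 bases set the size of the set, which was 18867 windows at a cut of 250 bases and 1835 at 900, with island shares of 24.9 and 52.2%. It was 4195 windows, with an island share of 45.4%, when the 6 hpa peaks alone had to reach a −log10 q of 2. The 1327 windows less than 50 bases above the cut had a median fold of 2.58, a median GC of 49.4% and an island share of 21.3%. The 1529 windows up to 50 bases short of it had 2.59, 49.5% and 22.2%. A further 258 windows met the 6 hpa cut and were touched by fewer than 50 bases of other lists, with a fold of 2.64, a GC of 47.6% and an island share of 14.0%. Of 157765 autosomal 6 hpa peaks, 27824 (17.6%) met no peak of another list, and 21973 of these held no window of the set and had a median width of 232 bp.

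The surroundings of the windows were examined next. A 6 hpa peak lay within 1 kb of 80.1% of them, a CC peak within 1 kb of 13.8%, a 14 hpa peak within 1 kb of 10.03% and a PN5 peak within 1 kb of 8.56%. Over all assembled windows the shares were 19.56% for 6 hpa, 20.98% for CC, 21.48% for 14 hpa and 17.15% for PN5. The 6 hpa share of the set can include a window's own peak where it runs into the next window. A peak of any of the 9 other lists lay within 1 kb of 35.7%, within 5 kb of 76.4% and within 10 kb of 91.0%. The same shares over all assembled windows were 47.2%, 75.2% and 88.1%, and over the other 6 hpa windows 98.6%, 99.6% and 99.86%. Coverage by the other lists was still low beside the windows. The rule emptied the windows of these lists and a peak can span several windows, so this low coverage follows in part from the rule. At 1 kb the mean share of bases covered was 3.08% for CC, 2.10% for 14 hpa, 1.01% for the morula and 0.996% for the 2-cell list, against autosomal means of 8.86, 8.63, 7.86 and 5.12%. At 20 kb it was below the autosomal mean for CC (7.23%), 14 hpa (8.11%), the morula (7.12%), ICM (5.61 against 6.43%) and TE (5.44 against 6.06%). It was above that mean for 6 hpa (8.10 against 5.77%), the 4-cell list (8.57 against 6.52%), the 8-cell list (8.37 against 7.03%), PN5 (6.80 against 5.39%) and the 2-cell list (6.10%).

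**Figure D5:**
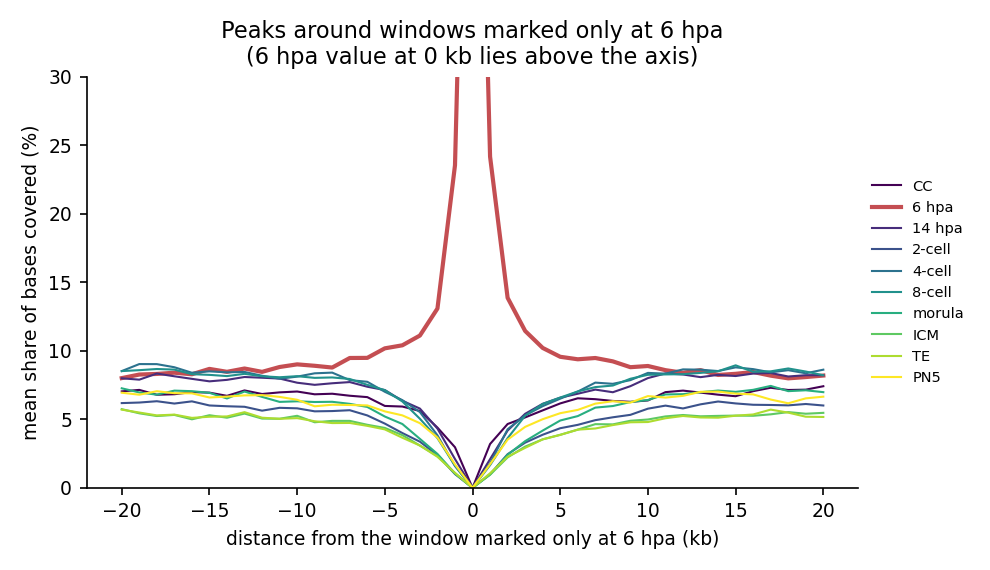
Mean percentage of bases covered by the peaks of each list (y axis) in 1-kb windows at increasing distance in kb from the windows marked only at 6 hpa (x axis, 0 is the window itself, where the rule sets the other lists to 0). The 6 hpa line (red) falls from 23.9% at 1 kb to 8.10% at 20 kb, and the other lists rise from between 0.996 and 3.08% at 1 kb to between 5.44 and 8.57% at 20 kb.

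Short motifs were searched on both strands as a description of sequence. GGGCGG, the GC box bound by SP factors, was in 42.5% of the windows, 17.7% of the other 6 hpa windows and 8.78% of all windows. Between 50 and 60% GC these shares were 46.2, 32.1 and 29.7%. TGCCGC, the hexamer of the imprint factor ZFP57, was in 26.1, 14.1 and 5.89% of windows, and in 24.9, 20.6 and 16.7% at 50 to 60% GC. CACGTG, the E-box bound by MYC and MAX, was in 14.9, 10.6 and 9.62%, and at 50 to 60% GC it was in 16.1% of the set and 16.1% of all windows. TATAAA was less frequent in the set (30.5%) than in the other 6 hpa windows (44.5%) and in all windows (62.4%), and at 50 to 60% GC the shares were 20.7, 26.5 and 23.8%. GCCATNTT, the YY1 core, was in 15.0, 24.2 and 20.5%, and in 13.0, 23.9 and 16.6% at 50 to 60% GC. GC box and hexamer can overlap where the bases allow, and a match is not a bound site. The range of 50 to 60% GC does not match GC exactly, because the set lay higher within it.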

How the data were processed

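H3K9me3 ULI-NChIP-seq libraries (74: 41 precipitates, 33 inputs) were trimmed with Cutadapt (1.16 in the submitters' processing notes) and aligned to mm10 with BWA mem. The authors merged the libraries of a stage, removed duplicates, drew equal read numbers with Picard and called broad peaks over input with MACS2. The caller's threshold is not given in the sources used here, and library depths are not in the lists. Each of the 10 deposited lists gives per peak a fold enrichment, a ratio to input, and a −log10 q value, both set by the authors' peak caller. A −log10 p column was not used.

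Peaks were merged and their bases counted in 1-kb windows (Python 3.11.15, numpy 2.4.6, pandas 2.3.3, numba 0.67.0), after checks on simulated peaks. Sequence was GRCm38.p6 and genes GENCODE M21; chromosome lengths bounded every peak. Coordinates are 1-based. CpG islands were found by a running score (+17 per CG, −1 otherwise) in unmasked sequence, longer than 200 bases, GC at least 50%, CG ratio above 0.6. High-CpG promoters held a 500-bp frame (steps of 10) whose CG ratio reached 0.75 and GC 55%, and low-CpG promoters held none above 0.48. Named genes are the 10 with the highest 6 hpa fold at the 5′ end, the 10 with most windows, up to 4 of each list by fold, the 5 longest runs, the 5 windows of highest fold and the 3 densest bins. The windows and gene lists were chosen with earlier results of these data known. The alternatives were other coverage cuts, a shifted grid, −log10 q of at least 2, PN5 left out, empty flanks, lists trimmed to equal length, all transcripts and a stricter island overlap. With 1 pooled list per stage, no test was run.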

Additional observations from a re-analysis of the deposited data

Results flagged for a closer look

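The autosomal rule leaves out chromosome X. By the same rule 614 of the 15536 windows marked there at 6 hpa (3.95%, Wilson 95% interval 3.66 to 4.27) were touched by no other list, against 6.83% on the autosomes, where single chromosomes ranged from 3.77 to 11.998%. This is listed because the signal lies outside the data described above and its count exceeds the 3 that a count of 0 allows. That minimum is a rule for listing and not a test.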

How the results depend on the processing

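Of 58 alternative values, 18 stayed within 1.5 times a main count or within the interval of a share or median, and 40 moved. The windows marked only at 6 hpa numbered 18867 at 250 bp covered, 1835 at 900 bp, 4195 with −log10 q of at least 2 asked at 6 hpa only and 5213 with 1 kb on either side empty in the other lists, each following from a looser or stricter cut. The genes with the 5′ end in such a window numbered 2130 at 250 bp and 302 at 900 bp. In the order 250 bp, 900 bp, a −log10 q minimum of 2 for all lists, that minimum at 6 hpa only, empty flanks and lists trimmed to equal length, the share of 6 hpa windows was 9.65, 3.38, 6.48, 4.44, 4.39 and 10.5%. In the same order median GC was 50.1, 56.6, 53.1, 55, 53.7 and 48.7%, the island share 24.9, 52.2, 38.8, 45.4, 37.1 and 24.95%, the promoter share 21.4, 37.2, 28.6, 34.1, 30.2 and 19.6%, and the intergenic share 36.4, 21.5, 31.5, 27.1, 29.0 and 41.7%. Without PN5 in the rule the share of 6 hpa windows was 7.75% and the intergenic share 31.4%. The promoter share was 31.4% with the 5′ ends of all transcripts, and the island share 28.7% when at least 200 bases had to overlap. The causes of these moves beyond the change in cut were not tested. With that minimum for all lists, and with trimmed lists, the highest island share of exclusive windows in another list was 2.81% and 1.84%, both in PN5. No paired analysis was possible because each stage has 1 list made from merged libraries, which also means that leaving out a replicate could not be tried. Depth per library is unknown, and the lists cannot show a mark below the caller's threshold.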

Other observations

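Noncoding genes also had 5′ ends in the windows marked only at 6 hpa. The share was 11 of 190 bidirectional promoter lncRNAs (5.79%, 3.26 to 10.1), 116 of 2913 antisense genes (3.98%, 3.33 to 4.75), 34 of 2054 miRNA genes (1.66%) and 63 of 5209 lincRNAs (1.21%), against 51 of 8924 processed pseudogenes (0.571%, 0.435 to 0.751). Many antisense and bidirectional genes start beside a protein-coding 5′ end, so their windows can be those already described.

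Some further runs of 5 windows, named after their values were seen, lay at the starts of Mn1 (mean GC 66.4%), Nkx1-1, Fgf8, Eomes and Nfatc1. The Nkx1-1 body was covered over 100% at 6 hpa, 35.2% in PN5, 28.8% at 14 hpa and 26.9% at the 2-cell stage.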
